A study of Mus musculus with 3 samples.

Results

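Conventional type 2 dendritic cells marked by the lectin gene Cd209a were examined in the adventitia of the mouse aorta, the connective tissue that wraps the vessel. Members were chosen by their own transcript counts, so the values of the genes named in this rule are a description and no finding. A barcode, the tag of 1 droplet, was taken as a member when it carried at least 2 Cd209a UMIs (molecules counted once each) and when H2-Aa, H2-Ab1 and H2-Eb1 made up at least 0.5% of its UMIs. The macrophage genes C1qa, C1qb and C1qc had to stay below 0.1%, the fibroblast genes Col1a1, Col1a2, Dcn and Lum below 1%, and the type 1 dendritic genes Xcr1 and Clec9a at 0 UMIs. Only barcodes with at least 500 UMIs, at least 300 genes and at most 10% mitochondrial UMIs were considered. The rule found 160 members among 42779 kept barcodes, with 92 in the AngII_VWR library, 44 in AngII and 24 in Vehicle.

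The series addressed habitual exercise, nerve and immune signalling and aortic stiffness. The AngII_VWR mice received angiotensin II, the hormone that constricts vessels and raises blood pressure, and had voluntary wheel running. The AngII mice received angiotensin II, and the Vehicle mice received saline. Per the labels there were 3 mice per group, but the data came as 1 library per group, and pooling of the mice was not stated. Strain, sex and age are not given in the sources used here. With 1 library per group no statistical test was possible. All intervals below are 95% intervals of counting error, limits for a count of 0 are taken at 3 counts, and both say nothing of the differences between mice, libraries or digestions.

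Dendritic cells take up antigen, present its peptides on MHC class II molecules and carry it to lymph nodes, where co-stimulatory proteins decide how T cells respond. The type 2 lineage depends on the transcription factor IRF4, presents mainly to helper T cells and sits in the adventitia of healthy vessels. In mice CD209a, a relative of human DC-SIGN, marks a large share of these cells and is also found on some monocyte-derived cells.

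On mm10 (GRCm38), Cd209a (ENSMUSG00000031494) lies on the minus strand at chr8:3743397-3748984, and the 3 class II genes of the rule lie together on chromosome 17, H2-Ab1 at chr17:34257689-34269419, H2-Aa at chr17:34282744-34287823 and H2-Eb1 at chr17:34305867-34316674. Class II genes share a promoter module whose Y box is bound by NF-Y and which is read by the class II activator CIITA. The 150 bases before the start of H2-Aa and of H2-Eb1 are shown because transcripts of these genes chose the members and because both windows hold that box. The Y box searched was CTGATTGG on either strand, in capitals below. It lies 43 bases before the start of H2-Aa (chr17:34287824-34287973, minus strand) and 54 bases before that of H2-Eb1 (chr17:34305717-34305866, plus strand), from the RefSeq promoters of GRCm38.p6.
H2-Aa: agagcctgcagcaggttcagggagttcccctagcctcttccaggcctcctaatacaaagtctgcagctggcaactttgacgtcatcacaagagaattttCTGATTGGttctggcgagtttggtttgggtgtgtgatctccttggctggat
H2-Eb1: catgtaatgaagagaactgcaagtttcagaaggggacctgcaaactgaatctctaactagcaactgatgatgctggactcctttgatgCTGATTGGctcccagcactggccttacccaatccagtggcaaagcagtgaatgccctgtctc
The same box was found in 1039 of 32851 RefSeq promoters over the same window (3.16%). Among Cd209a, the 3 class II genes and the 10 genes most like them described below, 11 of 14 matched a promoter and 2 of these held the box.

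The libraries differed in depth. The median kept barcode had 4638 UMIs in AngII_VWR, 13460 in AngII and 10174 in Vehicle, and the median member had 6782, 19456 and 21464.5 UMIs. Single members ran from 693 to 29696 UMIs in AngII_VWR, from 4521 to 44806 in AngII and from 1756 to 38840 in Vehicle. The summed members held 668160, 956397 and 505497 UMIs. Haemoglobin made up 0.106, 0.172 and 1.44% of the kept UMIs in AngII_VWR, AngII and Vehicle. Between 44 and 80 barcode sequences were shared by any pair of libraries, and only 1 member, from AngII_VWR, carried a barcode also seen in another library.

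The label was checked against markers. Of the 13 type 2 dendritic markers 3 belong to the rule and were left out of the check. The other 10 summed to 4240, 5106 and 4030 counts per 1000000 UMIs (CPM) in members of AngII_VWR, AngII and Vehicle, against 457, 579 and 545 CPM in the other kept barcodes, and all 10 were above their level there in each library. Without the C1q genes of the rule, the other 11 macrophage markers summed to 1131, 1320 and 1211 CPM in members. They summed to 20185, 24164 and 28128 CPM in class II macrophage barcodes (at least 0.5% class II and 0.1% C1q UMIs), a population that the same C1q limit sets apart from members. The 10 type 2 dendritic markers summed to 1791, 1946 and 2058 CPM in class II macrophage barcodes, nearer to the members than in all other kept barcodes. The 8 pan-dendritic markers summed to 606, 622 and 473 CPM in members of AngII_VWR, AngII and Vehicle, and to 50.4, 54.1 and 78.8 CPM in other barcodes. Of these 8, 7 and 5 were above other barcodes. Spib was at 0 UMIs in AngII and Vehicle, and Ccr7 in Vehicle. Among them Zbtb46, a transcription factor of the conventional dendritic lineage, had 114, 198 and 138 CPM, and Flt3, its growth factor receptor, 118, 98.3 and 61.3 CPM. These genes were not in the rule, but they were read in the cells it chose and are a description. Monocyte markers were also read: their sum was 3462, 5750 and 8139 CPM in AngII_VWR, AngII and Vehicle, most of it Lyz2 with 2272, 4548 and 7090 CPM. The same sum was 3380, 4885 and 4178 CPM in other kept barcodes, 1515, 1939 and 1771 CPM in type 1 dendritic barcodes and 13016, 18288 and 15775 CPM in class II macrophage barcodes. Of the 10 monocyte markers 7, 3 and 4 were above other barcodes in members of AngII_VWR, AngII and Vehicle. Ly6c2, a marker of classical monocytes, was at 0 UMIs in AngII and Vehicle and Chil3 in all 3 libraries. The monocyte sum in members was above that of the 10 type 2 dendritic markers in AngII and Vehicle and below it in AngII_VWR. Monocyte-derived cells among the members were not told apart from cells of the dendritic lineage. The 10 markers of mature, lymph-node-bound dendritic cells, some of which also stand in the lists below, summed to 388, 853 and 437 CPM in members of AngII_VWR, AngII and Vehicle, and to 1371, 1186 and 950 CPM in other barcodes. Of 6 measured, 5 were at least 1.5-fold higher in AngII over Vehicle, and 5 were lower and 1 higher by that fold in AngII_VWR over AngII. Fscn1 gave 1 UMI in AngII and 0 in the other libraries. Fibroblast markers summed to 2504, 900 and 635 CPM in members of AngII_VWR, AngII and Vehicle, and to 1137, 507 and 366 CPM without the 4 fibroblast genes of the rule. The part of depth, haemoglobin, fibroblast RNA, monocyte markers and mature cells in the results below was not tested.

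Among the genes that chose the members, Cd209a had 1651 CPM in AngII_VWR, 1022 CPM in AngII and 847 CPM in the Vehicle library, and the median member held 9, 14 and 14 Cd209a UMIs. The rule asks for a count and not a share, so it admits lower Cd209a levels in deeper barcodes. The lower quartile of members stood at 829, 328 and 219 CPM of Cd209a in AngII_VWR, AngII and Vehicle. How far the rule thereby chose unlike cells in the 3 libraries was not tested. H2-Aa had 11306, 10334 and 9246 CPM, H2-Ab1 8342, 10714 and 10530 CPM and H2-Eb1 10454, 8915 and 8388 CPM. Exactly 2 Cd209a UMIs, just inside the rule, were held by 10 members of AngII_VWR, 3 of AngII and 4 of Vehicle. With 1 Cd209a UMI and the rest of the rule met, 24, 5 and 4 barcodes fell just outside it. Of the barcodes with at least 2 Cd209a UMIs, 46, 43 and 66 were kept out by the C1q limit alone, so that the adventitia also held Cd209a transcripts in macrophage barcodes. The relatives Cd209b, Cd209e and Cd209f had at most 18.0 CPM in any library, while Cd209d had 49.4, 33.5 and 105 CPM, and reads that fit several members of this gene family may be assigned uncertainly.

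Genes most like the rule's genes were taken as the 10 with the highest ratio of CPM in members over all other kept barcodes, by the lowest of the 3 libraries and with at least 100 CPM in each. They were ranked on the cells that the rule chose, so this too is a description. They were Klri1, Napsa, Tnip3, H2-DMb2, Traf1, Il1r2, Cytip, Clec4b1, Malt1 and Ltb4r1. Napsa, an aspartic protease, had 488, 549 and 429 CPM in AngII_VWR, AngII and Vehicle members, and Cytip, which loosens integrin contacts of dendritic cells, 1221, 1300 and 1108 CPM. Tnip3, an inhibitor of NF-kB signalling, had 853, 1912 and 1885 CPM, and Il1r2, the decoy receptor of interleukin 1, 501, 508 and 113 CPM. The 10 genes therefore did not vary alike over the 3 libraries. Tnip3 stood lower in AngII_VWR than in the other libraries, and Il1r2 lower in Vehicle.

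Members made up 0.484% of kept barcodes in AngII_VWR (0.390 to 0.593), 0.444% in AngII (0.323 to 0.596) and 0.173% in Vehicle (0.111 to 0.258, exact Clopper-Pearson). The AngII share was 2.57-fold the Vehicle share (1.53 to 4.41, exact conditional interval), and the AngII_VWR share was 1.09-fold the AngII share (0.752 to 1.60). The intervals of AngII and Vehicle did not overlap and those of AngII_VWR and AngII did. With 1 library per group this concerns counting error alone and does not measure an effect of the treatments. Under 14 other settings of the rule, the depth or the denominator, the ratio was 1.98 to 3.64 for AngII over Vehicle and 0.993 to 1.43 for AngII_VWR over AngII. A share can move with any other cell type in the digest: type 1 dendritic barcodes (at least 2 UMIs of Xcr1 and Clec9a with the class II, C1q and fibroblast limits met) made up 0.352, 0.717 and 0.325% in AngII_VWR, AngII and Vehicle, and class II macrophage barcodes 5.28, 11.7 and 4.39%. All of these populations had a higher share in AngII than in Vehicle, and in AngII_VWR the shares of both comparison populations were below those in AngII.

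**Figure D1:**
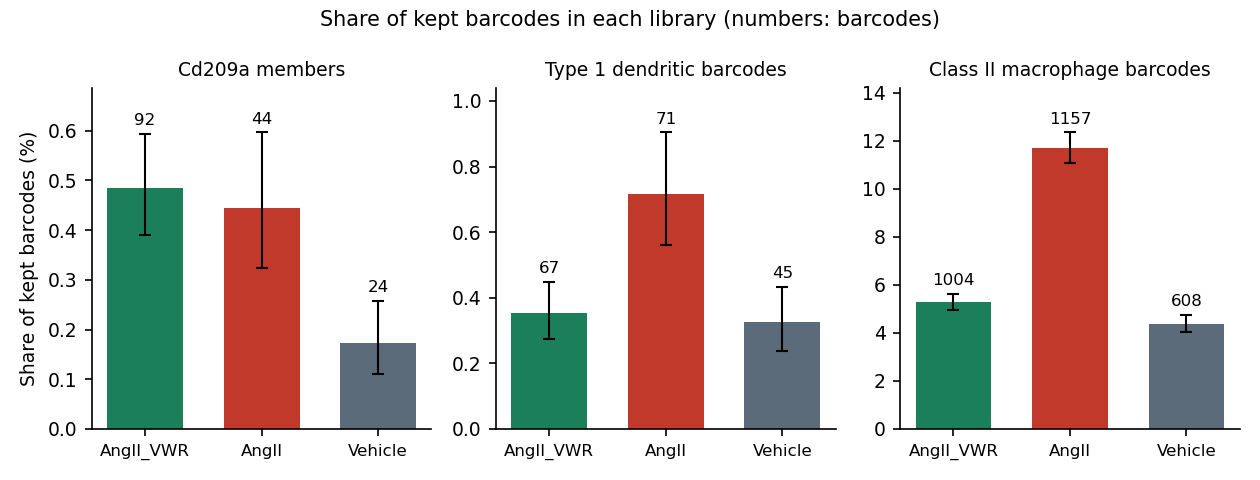
Share of kept barcodes (%) held by the Cd209a members, by type 1 dendritic barcodes and by class II macrophage barcodes in the AngII_VWR, AngII and Vehicle libraries, with 1 library per bar and its number of barcodes above it. Error bars are exact 95% intervals of counting error, and the members' bars stand at 0.484, 0.444 and 0.173%.

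The AngII library was set against Vehicle to ask how angiotensin II and saline differed in these cells. Most measured co-stimulatory, chemokine and growth factor receptor genes were higher in members from AngII than in members from Vehicle, and most early response genes were lower. Values are log2 ratios of CPM + 1 of the summed members, over genes with at least 20 CPM in the higher library and 20 UMIs over both. Of 5688 such genes, 8.30% (472 genes) had at least 2-fold the Vehicle level in AngII and 5.24% (298 genes) were lower by at least that fold. The median log2 ratio was 0.01, and 50.8% of the genes had a ratio above 0. At least 1.5-fold, the measure used for the lists below, was reached by 17.8% of all measured genes upward and 15.0% downward. Each list's median stands beside its median in all other kept barcodes of the same libraries.

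Co-stimulatory genes, whose proteins give T cells the signal that accompanies antigen, were measured for 12 of 15. Of these 11 were higher and 8 at least 1.5-fold higher in AngII, against 17.8% of all genes, with a median log2 ratio of 0.77 (0.32 in other barcodes). Cd80, a ligand of CD28 on T cells, had 828 CPM in AngII members and 421 CPM in Vehicle members, 1.97-fold (1.69 to 2.30). Cd86, the other CD28 ligand, had 1254 and 681 CPM. Cd40, the receptor through which helper T cells license dendritic cells, had 174 CPM in AngII members and 65.3 CPM in Vehicle members, 2.66-fold (1.82 to 3.99), with a UMI in 26 of 44 and 8 of 24 members. Cd274, which encodes the checkpoint ligand PD-L1, had 75 UMIs in 16 AngII members and 1 UMI in Vehicle members, a ratio of 39.6 (6.90 to 1586). Tnfsf4, the ligand of OX40, gave 62 UMIs in 8 AngII members, 48.4% of them from 1 barcode, and 0 UMIs in Vehicle, at least 10.9-fold higher at a floor of 3 UMIs per library. Cd83, a maturation marker, had 2306 and 2105 CPM. In type 1 dendritic barcodes Cd80 and Cd40 were lower in AngII, with 213 against 286 CPM and 44.1 against 70.6 CPM.

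Antigen presentation genes differed less. Beside the genes of the rule, 11 class II genes were measured, and 2 were at least 1.5-fold higher and 1 lower, a share near that of all genes, with a median of 0.17 (0.47 in other barcodes). Ifi30, a thiol reductase that unfolds antigen in the endosome, had 925 CPM in AngII, against 431 CPM in Vehicle, 2.15-fold (1.85 to 2.50). Lgmn, an endosomal protease, had 110 and 31.7 CPM, while the class II activator Ciita had 152 and 135 CPM. The invariant chain Cd74, which fills the class II groove before loading, had 27520 and 27994 CPM. For class I presentation 12 of 14 measured genes were higher, 2 of them at least 1.5-fold, with a median of 0.39 (0.34 in other barcodes). Lysosomal genes, measured for 16 of 18, were at least 1.5-fold higher for 8 and lower for 0, with a median of 0.58 (0.15 in other barcodes).

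Of the chemokines 15 of 20 were measured, 9 of them higher by 1.5-fold or more and 3 lower, with a median of 1.61 (−0.05 in other barcodes). Cxcl16, which draws CXCR6-bearing T cells, had 163 CPM in AngII members and 35.6 CPM in Vehicle members, with 33 of 44 and 8 of 24 members positive. Several others came from few cells. Ccl17, a ligand of CCR4 on helper T cells, had 178 UMIs in 8 AngII members, 35.4% of them from 1 barcode, and 7 UMIs in 3 Vehicle members. Cxcl9, an interferon-induced T cell attractant, had 162 UMIs, 69.1% from 1 barcode, against 2 UMIs in Vehicle. Cxcl2, a neutrophil attractant, had 1011 CPM in AngII, against 1610 CPM in Vehicle, so that the chemokines did not move as one. Ccr7, the receptor that leads dendritic cells to lymph nodes, gave 64 UMIs in 7 AngII members, 67.2% from 1 barcode, and 0 UMIs in Vehicle.

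Interleukin genes were mixed, with 5 of 12 measured cytokines at least 1.5-fold higher and 2 lower and a median of 0.31 (0.51 in other barcodes). Il1b, the central inflammatory interleukin, had 6627 CPM in AngII members and 3751 CPM in Vehicle members, 1.77-fold (1.68 to 1.86), with a UMI in 44 of 44 and 20 of 24 members. The median member had 6082 CPM in AngII, against 3735 CPM in Vehicle. In all other barcodes Il1b had 548 and 149 CPM, a log2 ratio of 1.87 against 0.82 in members. After every barcode was thinned to 2000 UMIs, 97.7% of AngII and 73.9% of Vehicle members held Il1b, against 4.15 and 1.12% of fibroblast-rich barcodes (at least 1% of UMIs from the 4 fibroblast genes), which should lack it and whose median depth was 13434 and 10466 UMIs. Il1a had 83.6 and 140 CPM, lower in AngII. Il12b, a subunit of the cytokine that drives type 1 helper cells, had 89 UMIs in AngII, all from 1 barcode, and 0 in Vehicle. Il1r2 had 508 CPM in AngII members and 113 CPM in Vehicle members, 4.51-fold (3.42 to 6.04).

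Growth factor and cytokine receptors were measured for 15 of 17, with 14 higher, 10 at least 1.5-fold higher and a median of 0.66 (0.33 in other barcodes). Il4ra, the receptor chain for interleukins 4 and 13, had 66.9 CPM in AngII, against 19.8 CPM in Vehicle. Ifnar2, a chain of the type I interferon receptor, had 144 and 59.3 CPM, and Csf2rb, the shared chain for GM-CSF, 234 and 142 CPM. Among interferon-response genes 9 of 11 measured were at least 1.5-fold higher, with a median of 1.05 (0.02 in other barcodes). Isg15, an interferon-induced ubiquitin-like modifier, was low, with 85.7 CPM in AngII members and 39.6 CPM in Vehicle members, in 14 of 44 and 11 of 24 of them. The NF-kB feedback genes, of which all 19 were measured, had a median of 0.08 in members and 0.86 in other barcodes.

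Of 28 neuro-immune genes, receptors and guidance molecules through which nerves signal to immune cells, 14 were measured, 7 of them at least 1.5-fold higher and 2 lower, with a median of 0.58 (0.39 in other barcodes). Htr7, a serotonin receptor, had 216 CPM in AngII, against 55.4 CPM in Vehicle, 3.91-fold (2.63 to 6.02), in 25 of 44 and 6 of 24 members. Type 1 dendritic barcodes held more Htr7, with 977 and 385 CPM, and it was higher in AngII there as well. Ramp3, a partner of the receptors for adrenomedullin and calcitonin gene-related peptide, had 135 CPM in AngII members and 33.6 CPM in Vehicle members, in 27 of 44 and 7 of 24 of them, with a log2 ratio of 1.97. In Vehicle 52.9% of the 17 Ramp3 UMIs came from 1 barcode. Ramp1 had 125 and 135 CPM. The receptor of angiotensin II itself was hardly seen: Agtr1a gave 0, 1 and 0 UMIs in AngII_VWR, AngII and Vehicle members.

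Early response genes were mostly lower in AngII. All 24 of the list were measured, 20 were lower and 14 at least 1.5-fold lower, against 15.0% of all genes, with a median of −0.74 (0.02 in other barcodes, −1.03 in type 1 dendritic barcodes). Fos had 736 CPM in AngII members and 3145 CPM in Vehicle members, 4.27-fold lower (3.91 to 4.68), and Jun 451 and 1606 CPM. Both encode subunits of AP-1, a factor that is also induced by tissue digestion. The labels give the same digestion settings for all groups, but each group was 1 library, and the part of digestion was not tested. Type 1 dendritic barcodes had 649 CPM of Fos in AngII, against 2614 CPM in Vehicle, whereas all other barcodes together had 3816 and 4261 CPM. Klf2, a transcription factor that restrains inflammatory activation of myeloid cells, had 279 CPM in AngII, against 1492 CPM in Vehicle, 5.34-fold lower (4.64 to 6.17). The median member had 121 CPM of Klf2 in AngII, against 1186 CPM in Vehicle. Thinned to 2000 UMIs, 34.1% of AngII and 82.6% of Vehicle members held Klf2, and fibroblast-rich barcodes, which express the gene, 67.9 and 64.8%. Heat shock genes had a median of −0.56 and those of the unfolded protein response −0.40, close to −0.66 and −0.52 in other barcodes. Xbp1, a transcription factor of that response, was its only gene higher in AngII, with 176 against 81.1 CPM.

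Over all genes that met the rule for naming, the highest ratios were those of Basp1, Ndrg1, Ggta1, Lin54, Mcemp1, Mxd1, Uck2 and Gfpt1, with log2 ratios of 2.69 to 4.02. Basp1, a membrane-bound signalling protein best known in growing axons, had 507 UMIs in 37 of 44 AngII members and 16 UMIs in 6 of 24 Vehicle members, or 530 and 31.7 CPM, 16.7-fold (10.2 to 29.5). AngII_VWR members had 398 CPM. Type 1 dendritic barcodes had 459, 594 and 546 CPM in AngII_VWR, AngII and Vehicle, so that the low Basp1 of Vehicle was seen in the members and not there. Thinned to 2000 UMIs, Basp1 was held by 33.0, 45.5 and 4.35% of members in AngII_VWR, AngII and Vehicle, against 3.67, 6.07 and 9.33% of fibroblast-rich barcodes. The Vehicle share, 1 of 23 thinned members, was below that of fibroblast-rich barcodes. Ndrg1, a stress-responsive gene, had 167 CPM in AngII, against 11.9 CPM in Vehicle, 14.1-fold (6.33 to 39.0), in 16 and 3 members. The lowest were Klf2, Cebpa, Atxn1, Lmna, Atf3, Tsc22d3, Pbx3 and Ier2, with log2 ratios of −2.41 to −1.49. Lmna, which encodes lamin A of the nuclear envelope, had 208 CPM in AngII members and 708 CPM in Vehicle members, and the stress-induced factor Atf3 541 and 1802 CPM.

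**Figure D2:**
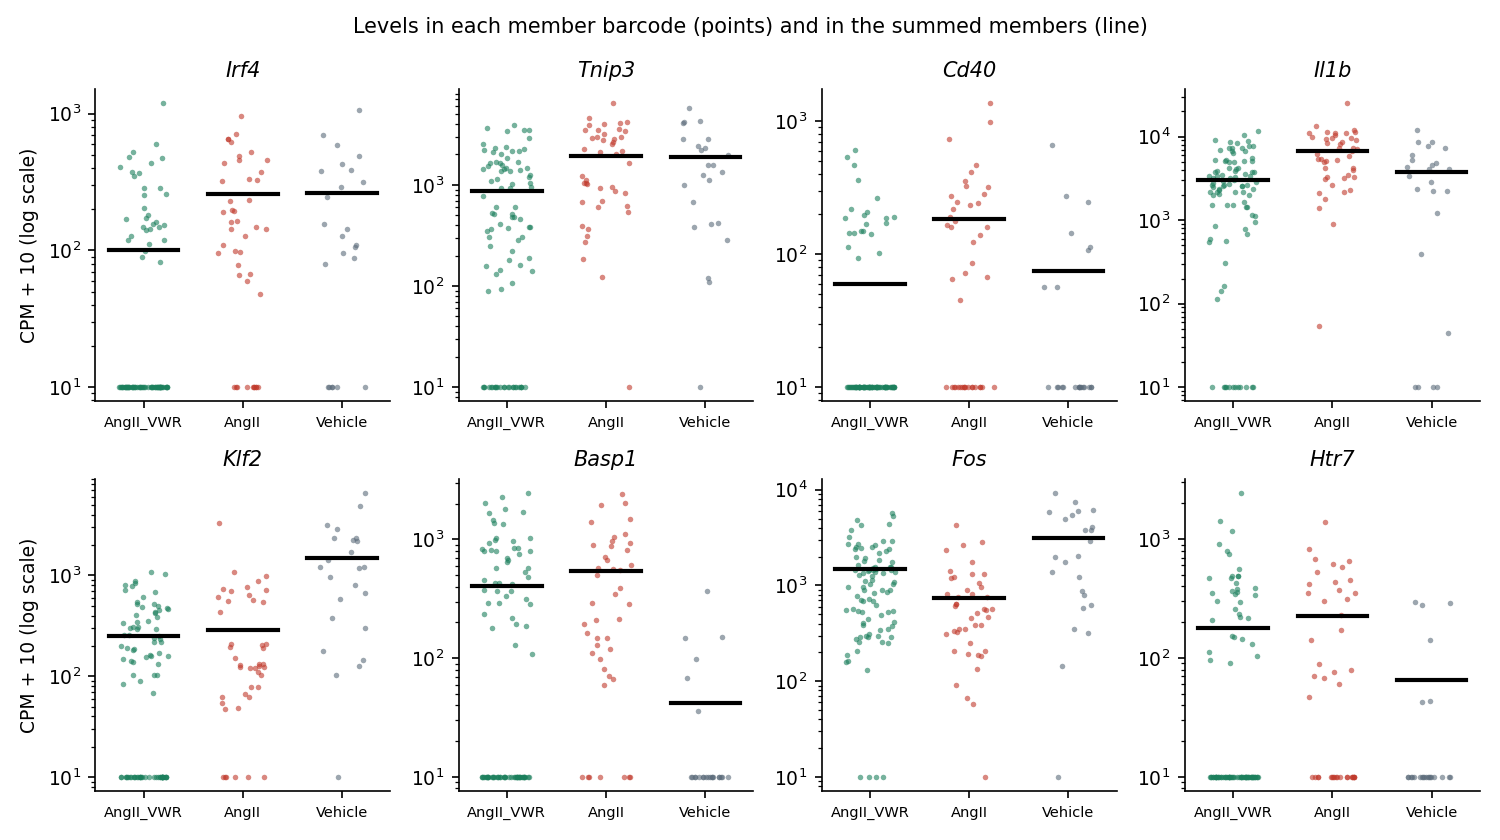
CPM + 10 on a log axis of 8 genes in each member of the AngII_VWR, AngII and Vehicle libraries, with 1 point per barcode, points at 10 for members without a UMI, and a line at the level of the summed members. Points of all libraries overlap for every gene, Klf2 and Fos lie highest in Vehicle, and most Vehicle members have no Basp1.

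The AngII_VWR library was set against the AngII library to ask how running differed from no running under angiotensin II. The AngII library stands in both comparisons, so a value particular to it appears in both with opposite sign. Members of AngII_VWR had fewer transcripts of cytokines, NF-kB feedback genes, chemokines and co-stimulatory genes and of the lineage factor Irf4, and more of the unfolded protein response and of Ifitm1. The medians of these gene lists lay in the same direction in all other kept barcodes and in type 1 dendritic barcodes. Of 6027 measured genes, 9.66% (582 genes) had 2-fold or more of the AngII level in AngII_VWR, and 4.93% (297 genes) were lower by at least that fold. The median log2 ratio of all measured genes was 0.12, and the list counts and medians of this comparison are given relative to it. On that scale 17.8% of measured genes were higher by 1.5-fold or more and 16.4% lower. Values of single genes are not shifted.

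Irf4, on which development and migration of type 2 dendritic cells depend, had 91.3 CPM in AngII_VWR and 250 CPM in AngII (251 CPM in Vehicle), 2.74-fold lower (2.06 to 3.69). A UMI was present in 32 of 92 AngII_VWR and 34 of 44 AngII members. At 2000 UMIs per barcode 12.5% of AngII_VWR and 34.1% of AngII members held Irf4, against 0.327 and 0.192% of fibroblast-rich barcodes. Tnip3 had 853 CPM in AngII_VWR and 1912 CPM in AngII, 2.24-fold lower (2.04 to 2.47), and 55.7 and 84.1% of thinned members held it. The other lineage genes shared this direction in part: of 23 measured, 7 were at least 1.5-fold lower and 2 higher, with a relative median of −0.29 (−0.28 in other barcodes). Zbtb46 had 114 and 198 CPM and Zeb2, a factor that restrains type 1 fate, 893 and 1624 CPM. Relb, a subunit of the non-canonical NF-kB pathway, had 183 and 308 CPM.

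Cytokines were measured for 12 of 20, with 10 of them lower by 1.5-fold or more in AngII_VWR and 0 higher, and with a relative median of −1.31 (−0.88 in other barcodes, −0.68 in type 1 dendritic barcodes). Il1b had 3002 CPM in AngII_VWR and 6627 CPM in AngII, 2.21-fold lower (2.10 to 2.32), against a log2 ratio of −1.59 in other barcodes. The median member had 2613 and 6082 CPM, and thinned to 2000 UMIs 83.0% of AngII_VWR and 97.7% of AngII members held Il1b, against 3.42 and 4.15% of fibroblast-rich barcodes. Il1a had 5 UMIs in AngII_VWR and 80 in AngII, 11.2-fold lower (4.60 to 35.4). Il1rn, the receptor antagonist, had 31.4 and 116 CPM, and Il18, a relative of Il1b, 40.4 and 146 CPM. Agonists and antagonist of the interleukin 1 family thus lay in the same direction, while the decoy receptor Il1r2 had 501 CPM in AngII_VWR and 508 CPM in AngII.

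All 19 NF-kB feedback genes were below the median of all genes and 13 were at least 1.5-fold lower, with a relative median of −0.95 (−0.83 in other barcodes, −0.28 in type 1 dendritic barcodes). Nfkbie, an inhibitor of NF-kB, had 106 CPM in AngII_VWR and 194 CPM in AngII, Birc3, an inhibitor of cell death, 358 and 681 CPM, and Traf1, a signalling adaptor of TNF receptors, 280 and 568 CPM. Bcl2a1b, a survival gene, had 458 and 915 CPM, with near-identical copies among which reads may be split. Of 16 measured chemokines 9 were at least 1.5-fold lower and 2 higher. Their relative median was −0.88 (−0.90 in other barcodes, −1.30 in type 1 dendritic barcodes). Ccl22, a ligand of CCR4, had 29.9 CPM in AngII_VWR and 282 CPM in AngII, 9.43-fold lower (5.99 to 15.7), and 38.5% of the AngII UMIs came from 1 barcode. Cxcl10, an interferon-induced attractant, had 97.3 and 384 CPM, with 44.6 and 49.0% of the UMIs from 1 barcode. The other CCR4 ligand, Ccl17, had 196 CPM in AngII_VWR and 186 CPM in AngII, 1.05-fold (0.834 to 1.33).

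Of 13 measured co-stimulatory genes 7 were at least 1.5-fold lower in AngII_VWR and 1 higher, with a relative median of −0.69 (−0.65 in other barcodes, −0.74 in type 1 dendritic barcodes). Cd40 had 49.4 CPM in AngII_VWR and 174 CPM in AngII, 3.51-fold lower (2.41 to 5.27). Cd80 had 409 and 828 CPM, 2.03-fold lower (1.76 to 2.33), and Cd86 687 and 1254 CPM. The levels of Cd80, Cd86 and Cd40 in AngII_VWR stood close to or below those of Vehicle, 421, 681 and 65.3 CPM. Class I genes were lower for 12 of 14, 7 of them at least 1.5-fold. Their relative median was −0.59 (−0.65 in other barcodes, −0.53 in type 1 dendritic barcodes). Class II genes outside the rule showed 1 of 10 at least 1.5-fold higher and 1 lower, with a relative median of −0.09 (−0.61 in other barcodes). H2-DMb1, which edits the peptides on class II, had 593 and 999 CPM, and Ifi30 1066 and 925 CPM.

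**Figure D3:**
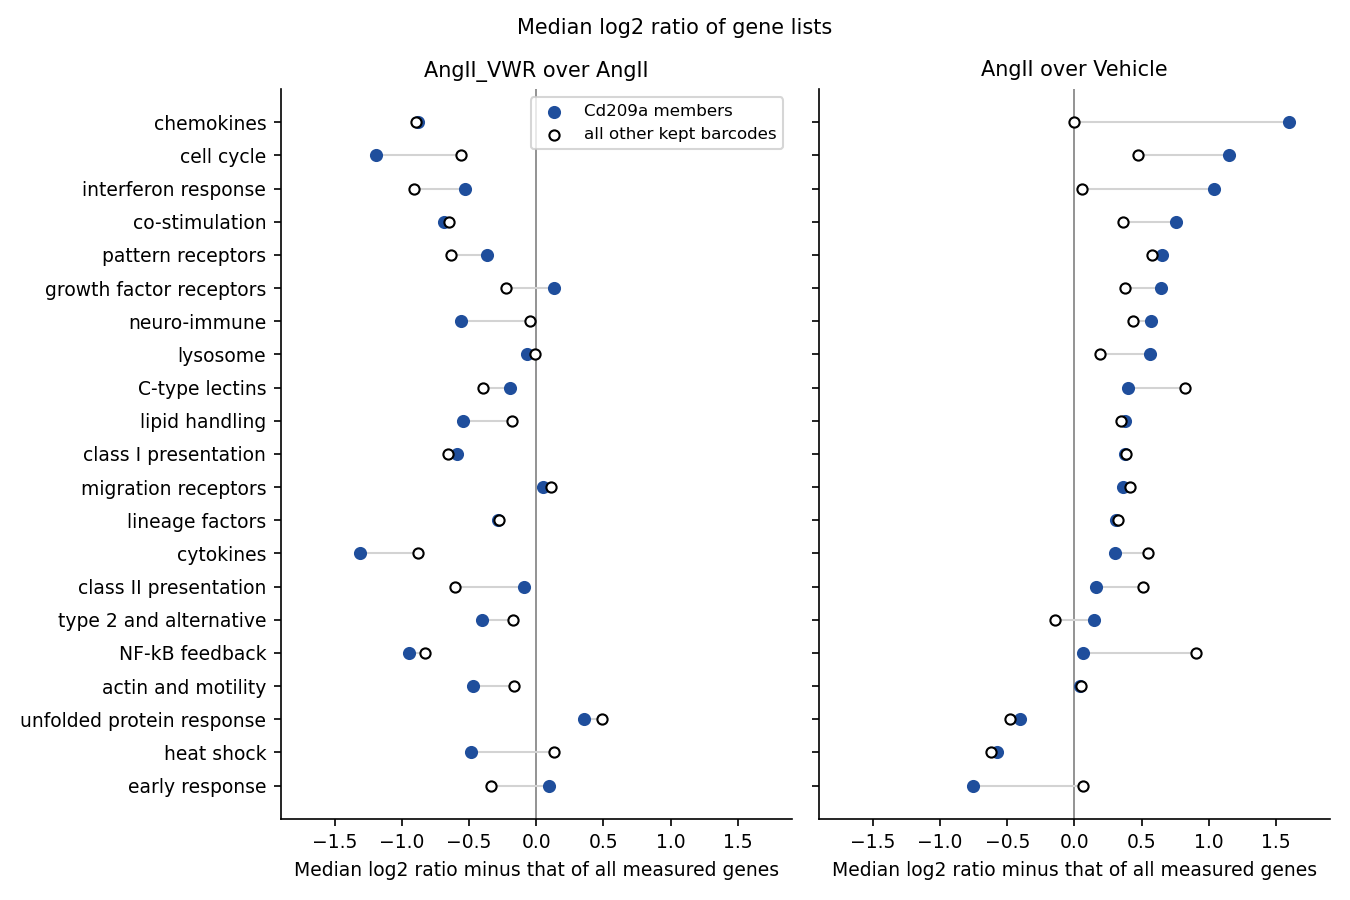
Median log2 ratio of each gene list relative to the median of all measured genes, for AngII_VWR over AngII (left) and AngII over Vehicle (right), in the summed Cd209a members (filled) and in all other kept barcodes (open). Both panels use the AngII library. Cytokines stand at −1.31 on the left and chemokines at 1.60 on the right in members, and early response genes at −0.76 on the right.

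The unfolded protein response widens the folding capacity of the endoplasmic reticulum. Of its 18 measured genes, 7 were at least 1.5-fold higher in AngII_VWR and 1 was lower. Their relative median was 0.35 (0.49 in other barcodes, 0.59 in type 1 dendritic barcodes). Pdia4, a disulfide isomerase, had 127 CPM in AngII_VWR and 47.1 CPM in AngII, 2.70-fold (1.86 to 3.97), and the chaperone cofactor Sdf2l1 296 and 127 CPM. Early response genes split, with 4 of 24 at least 1.5-fold higher and 5 lower. Fos had 1467 CPM in AngII_VWR and 736 CPM in AngII, while Klf6 had 337 and 647 CPM. Klf2 had 241 and 279 CPM. Neuro-immune genes were at least 1.5-fold lower for 6 of 14 and higher for 0, with a relative median of −0.56 (−0.04 in other barcodes). Htr7 had 169 CPM in AngII_VWR and 216 CPM in AngII, Ramp3 97.3 and 135 CPM, and Nrp2, a receptor of semaphorins, 43.4 and 92.0 CPM. Growth factor receptors were at least 1.5-fold higher for 4 of 16 and lower for 3. Tgfbr1, the type I receptor of TGF-beta, had 58.4 and 19.9 CPM, and it was 88.7 and 81.8 CPM in other barcodes.

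Cell cycle genes came from few members. With at least 5 UMIs over 8 division genes, 3 of 92 members of AngII_VWR (3.26%, 0.678 to 9.23), 4 of 44 of AngII (9.09%, 2.53 to 21.7) and 2 of 24 of Vehicle (8.33%, 1.03 to 27.0) counted as dividing. They held 76 of 97, 317 of 336 and 35 of 47 UMIs of those genes. Top2a, which untangles chromosomes before division, had 21.0 CPM in AngII_VWR, 94.1 CPM in AngII and 19.8 CPM in the Vehicle library, and without the dividing members its log2 ratio for AngII_VWR over AngII was 0.31.

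Over all genes that met the rule for naming, which asks for a level, a share of members and no dominant barcode, the lowest ratios of AngII_VWR over AngII were those of Pstpip2, Flrt3, Adgrg6, Arhgef3, Odc1, Itpkb, Spred1 and Il18, with log2 ratios of −3.84 to −1.83. Pstpip2, an adaptor that restrains interleukin 1 release from myeloid cells, had 5 UMIs in 5 of 92 AngII_VWR members and 115 UMIs in 25 of 44 AngII members, 16.1-fold lower (6.69 to 50.4). This made 7.48 CPM in AngII_VWR, 120 CPM in AngII and 65.3 CPM in the Vehicle library. Flrt3, an adhesion and guidance protein, had 25.4 CPM in AngII_VWR, 245 CPM in AngII and 119 CPM in the Vehicle library. The adhesion receptor Adgrg6 had 32.9, 231 and 55.4 CPM. For Pstpip2 the log2 ratio was −1.15 in other barcodes, and for Flrt3 −0.76.

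Under the same rule the highest ratios were those of Lsmem1, Ifitm1, Wsb1, AY036118, Tex14, Klrd1, Nufip2 and Pbx3, with log2 ratios of 1.43 to 3.26. Ifitm1, an interferon-induced membrane protein, had 808 UMIs in 33 of 92 AngII_VWR members, 127 UMIs in 10 of 44 AngII members and 3 UMIs in 3 of 24 Vehicle members. In AngII 63.0% of these UMIs came from 1 barcode. This made 1209, 133 and 5.93 CPM, 9.11-fold higher in AngII_VWR than in AngII (7.54 to 11.1). It was also higher in other barcodes of AngII_VWR, with 29.2 against 3.51 CPM in AngII, and so was Lsmem1, with a log2 ratio of 2.69. Thinned to 2000 UMIs, 29.5% of AngII_VWR, 11.4% of AngII and 0 of 23 Vehicle members held an Ifitm1 UMI. Those 0 members allow a share with a UMI at that depth of up to 13.0%, taken as 3 counts of 23. In fibroblast-rich barcodes the shares were 0.818, 0.192 and 0.168%. The interferon-response list did not share the direction of Ifitm1. Of its 13 measured genes 6 were at least 1.5-fold lower in AngII_VWR than in AngII and 0 higher, with a relative median of −0.53 (−0.91 in other barcodes).

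Members were not alike within a library, and the split below was chosen after its values were seen. In AngII_VWR 24 members had at least 3 Ifitm1 UMIs, in AngII 5 and in Vehicle 0. Retnla, a secreted protein induced by interleukin 4 that is best known from alternatively activated macrophages, was the gene at the other end. It had 773 UMIs in 16 AngII_VWR members, 1882 UMIs in 19 AngII members and 2488 UMIs in 15 Vehicle members, or 1157, 1968 and 4922 CPM. Single barcodes held 37.9, 23.9 and 34.4% of these UMIs. The log2 ratio of AngII_VWR over AngII was −0.77 and turned to 0.15 with at least 1 Cd209a UMI and 0.02% of UMIs as the rule, while that of AngII over Vehicle was −1.32 and ran from −1.76 to −0.28 over 20 alternatives. At least 3 Retnla UMIs were held by 7 of 92 AngII_VWR, 11 of 44 AngII and 12 of 24 Vehicle members. The 4 Vehicle members with exactly 2 Cd209a UMIs held 85, 196, 428 and 857 Retnla UMIs, while a Vehicle member with 27 held 260. The mix of members thus differed between the libraries, and its part in the ratios above was not tested. In any library, 0 members held at least 3 UMIs of both genes. In Vehicle this was fixed, as no member there held 3 Ifitm1 UMIs. At least 1 UMI of both genes was held by 4, 2 and 2 members of AngII_VWR, AngII and Vehicle. Few members were high in either gene, and whether the genes avoid each other was not tested. The median depth in AngII_VWR was 7005 UMIs with at least 3 Ifitm1 UMIs and 6780 UMIs with none. In AngII it was 26217 and 19255 UMIs, so the sides differed in depth there.

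Other genes differed along the same split. In AngII_VWR, the growth factor receptor Kit had 162 CPM in the 24 members with at least 3 Ifitm1 UMIs and 9.42 CPM in the 59 members with none, Htr7 451 and 68.3 CPM, and Il1r2 1204 and 271 CPM. Zfp366, a transcription factor known from dendritic cells, had 185 CPM in 8 of the 24 members and 0 UMIs in the 59. Clec4n, which encodes the fungal receptor dectin-2, had 313 and 4.71 CPM, and Plac8, which encodes a small cysteine-rich protein, 567 and 25.9 CPM. Retnla had 11.6 CPM with Ifitm1 and 1211 CPM without, Ear2, a ribonuclease of myeloid cells, 5.79 and 217 CPM, and Cd226, a receptor for nectins, 5.79 and 160 CPM. The chemokine Ccl6 had 191 and 1057 CPM.

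The 20 genes with the highest and the 20 with the lowest ratio in AngII_VWR, among genes with at least 150 CPM on the higher side, were then looked up in AngII, with 5 members holding at least 3 Ifitm1 UMIs and 34 holding none. With a pseudocount of 20 CPM, 17 of the 20 higher genes lay in the same direction in AngII and 8 of them by at least 2-fold, against 43.8 and 3.85% of the 1040 genes open to that ranking. Of the 20 lower genes 17 lay in the same direction and 14 by at least 2-fold, against 61.8 and 10.8% of 968 genes. With a pseudocount of 1 CPM, as used elsewhere, 12 and 16 genes passed 2-fold. With 5 members on one side, 1 barcode can set the value of a gene. The 20 genes of each side were extremes and some came from few members, so the genes open to the ranking are no matched reference. Cyp7b1, the first of the higher genes, was seen in 5 AngII_VWR members with at least 3 Ifitm1 UMIs and in 1 with none. In AngII, Zfp366 had 233 CPM with Ifitm1 and 4.14 CPM without, Kit 99.9 and 12.4 CPM, Htr7 391 and 186 CPM, and Il1r2 1232 and 355 CPM. Retnla had 8.32 and 2427 CPM and Ear2 33.3 and 250 CPM. Vehicle had no member with 3 or more Ifitm1 UMIs, and there the whole group had 1.98 CPM of Kit.

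**Figure D4:**
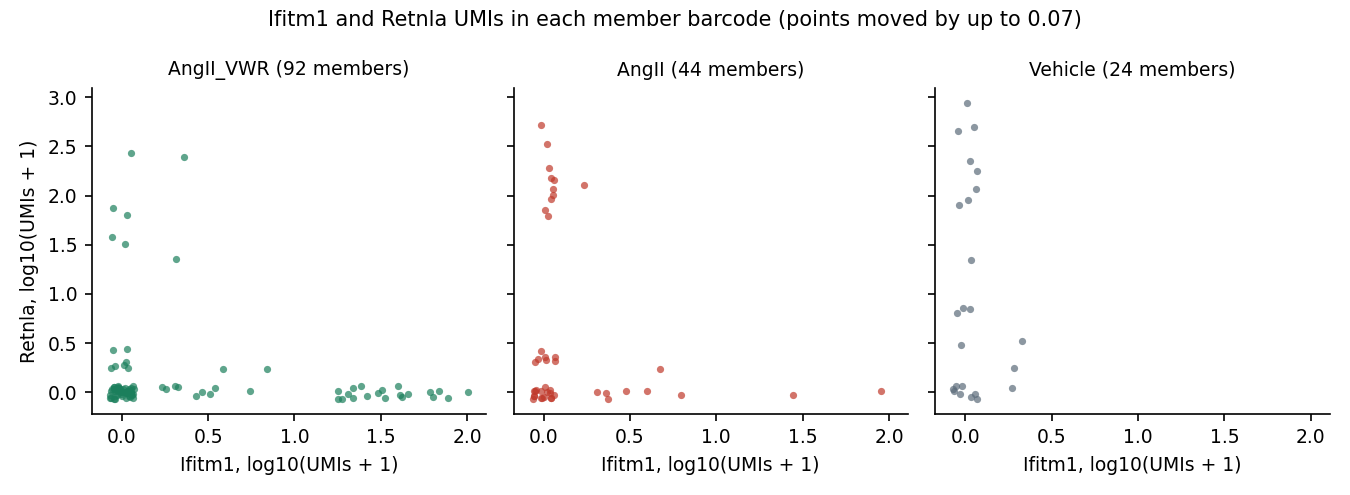
UMIs of Ifitm1 (x axis) and Retnla (y axis) in each member, both as log10 of UMIs + 1, with 1 panel per library and points shifted at random by up to 0.07. No member holds 3 or more UMIs of both genes, while 4, 2 and 2 members of AngII_VWR, AngII and Vehicle hold at least 1 UMI of both. The points at high Ifitm1 number 24 in AngII_VWR, 5 in AngII and 0 in Vehicle at 3 or more UMIs.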

How the data were processed

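The deposited files held raw counts of UMIs per gene and barcode for 32285 genes, made by the authors with Cell Ranger 7.0.1 (AngII, Vehicle) or 7.1.0 (AngII_VWR), per the file headers, on mm10, per the submitters' processing notes. Whether intronic reads were counted is not given in the sources used here. The files held 19633, 10515 and 15093 barcodes in AngII_VWR, AngII and Vehicle, with 105679209, 141570158 and 165977330 UMIs, and 19019, 9899 and 13861 passed the filters.

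UMIs were summed over members and scaled to CPM, with a pseudocount of 1 CPM for log2 ratios, in Python 3.11.15 with numpy 2.4.6, scipy 1.17.1 and pandas 2.3.3. Genes of the rule, mitochondrial, ribosomal protein and haemoglobin genes were left out of counts of genes. Calculations were tested on simulated data. Doublets were kept: Scrublet (scanpy 1.11.5), at 0.8% of barcodes per 1000, would remove 3, 1 and 7 members, and its own threshold 0, 0 and 0 (0, 135 and 248 barcodes in all), so it had not worked by itself in AngII_VWR. Of the gene list entries 5 were not found under their symbols.

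Genes outside the lists were named when at least 2-fold apart and among the 8 highest or lowest, with at least 100 CPM and 30 UMIs, a UMI in 10% of members, at most 20% of UMIs from 1 barcode and a level at least that of other barcodes of the higher library. The running library is the one titled EX. The members and lists were chosen with earlier results of these data known.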

Additional observations from a re-analysis of the deposited data

How the results depend on the processing

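With a pseudocount of 10 CPM, the 2-fold mark was passed upward by 297 and downward by 137 genes in AngII over Vehicle, and by 323 and 178 in AngII_VWR over AngII. With no minimum level there were 2892 and 2253, and 3267 and 1861. Leaving out, for each gene, the barcode with the most UMIs gave 164 lower genes in AngII over Vehicle. Other settings kept these counts within 1.5 times, among them scaling by the median of ratios (455 and 300 genes, and 486 and 374). Without dividing members the AngII over Vehicle log2 ratio was −0.046 for Hmgb2 and −0.26 for Mki67 (1.09 and 1.23 with them), and the AngII_VWR over AngII ratio was 0.31 for Top2a (−2.12 with them) and the median of the cell cycle list, not shifted by that of all genes, was 0.42 over 4 genes (−1.07 over 12 with them). Without its top barcode Gpr183 was 0.46 for AngII over Vehicle, against −1.50, and Ccr7 0.12 for AngII_VWR over AngII, against −1.13, and Ccr7 was 0.23 with at least 1 Cd209a UMI and 0.02% of UMIs as the rule. The alternatives on dividing members, top barcodes, members of at least 5000 UMIs and shared barcodes were chosen after seeing the data. Genes at 0 UMIs in 1 library moved no list median when set to the floor of 3 UMIs. No paired analysis was possible because each group has 1 library. With 24 Vehicle members, 1 barcode can set the level of a low gene, and the lower depth of AngII_VWR members limits what can be said of genes with few UMIs.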

Other observations

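C-type lectin genes, which encode receptors for sugars on microbes and dying cells, were measured for 12 of 16. Between AngII and Vehicle members, 4 of them were higher and 1 was lower by 1.5-fold or more, and their median log2 ratio was 0.41 (0.78 in other barcodes), beside 0.01 over all genes measured. Clec12a, an inhibitory receptor for uric acid crystals, had 74.2 CPM in AngII members and 27.7 CPM in Vehicle members, and Clec4n had 54 UMIs in 18 AngII members and 3 UMIs in 3 Vehicle members. Of 8 measured pattern recognition receptors and adaptors, 5 were higher and 1 was lower by that fold, with a median of 0.66 (0.54 in other barcodes). Cd14, the co-receptor for endotoxin, had 564 CPM in AngII and 334 CPM in Vehicle members. Class II macrophage barcodes held 1360 CPM of Cd14 in the AngII library, against 1121 CPM in the Vehicle library. They held 181 CPM of Clec4n in the AngII library, against 62.4 CPM in the Vehicle library, and their part in the members' values was not tested. Pparg, a lipid-sensing nuclear receptor, had 49.4, 107 and 37.6 CPM in AngII_VWR, AngII and Vehicle members, and 38.2% of its AngII UMIs came from 1 barcode. In AngII_VWR over AngII, 6 of 12 lipid handling genes and 8 of 18 actin and motility genes were lower by 1.5-fold or more relative to all genes, with relative medians of −0.55 (−0.18 in other barcodes) and −0.47 (−0.16). Actb, the main cytoskeletal actin, had 8196 CPM in AngII_VWR and 13440 CPM in AngII members.

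Kept barcodes with at least 2 Cd209a UMIs numbered 226 in AngII_VWR, 132 in AngII and 236 in Vehicle, so that members were 92, 44 and 24 of them. The C1q limit kept out 99, 77 and 199 of these barcodes and the class II limit 56, 32 and 134. Lyz1, a lysozyme gene mostly known from the gut and from some myeloid cells, came from few members, with a UMI in 4 AngII_VWR, 9 AngII and 7 Vehicle members and 247, 629 and 1788 CPM.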
